A study of Mus musculus with 5 samples.

Results

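Formation of the acrosome was followed through 4 genes in adult mouse testis: Dpy19l2, Gopc, Pick1 and Fam170b. They were taken by name from the deposited expression table, which gave 6 of its 55350 transcript rows, and were joined by transcript identifier to the binding table. Of the 22264 genes with a name in the expression table, 12737 reached a mean RNA signal of 1 over both genotypes, and all 4 genes were among these. Gm1568, which was searched for as a possible older symbol of Fam170b, lies on chromosome 12 and is the older symbol of Ccdc177 in RefSeq, so its row was left out. Every library came from testis of 3-month-old mice. RNA was sequenced in 1 wild-type library and 1 library of Taf7l-/Y males, each from a pool of 6 extracts. Chromatin labelled wild type was immunoprecipitated for TAF7L and for RNA polymerase II (Pol II) in 1 library each. With 1 library per group there is no replicate check, no p-value is given, and a gene was called higher or lower only at a 2-fold change or more after 1 was added to each signal.

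The acrosome is a secretory vesicle that caps the sperm nucleus and holds the enzymes and membrane proteins used at fertilization. It is built in round spermatids when vesicles from the Golgi apparatus fuse on the nuclear envelope, where a plate of actin and keratin, the acroplaxome, holds them. GOPC and PICK1 are PDZ domain proteins that bind each other and act in the traffic of these vesicles. DPY19L2 is a protein of the inner nuclear membrane that holds the acrosome to the nucleus. Loss of any of these 3 genes in mice gives round-headed sperm without a proper acrosome. FAM170B is an acrosomal protein that binds GOPC. TAF7L is a germ cell paralogue of the TFIID subunit TAF7, and TFIID brings Pol II to promoters.

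Each of the 4 genes had promoter scores for TAF7L and for Pol II, so their RefSeq promoter sequences are shown first, to set the base composition and motifs beside those scores. Each run covers the 250 bases before the annotated start in GRCm38.p6, in the direction of transcription, at chr9:24696294-24696543 (minus strand) for Dpy19l2, chr10:52382125-52382374 (minus strand) for Gopc, chr15:79229132-79229381 (plus strand) for Pick1 and chr14:32833712-32833961 (plus strand) for Fam170b. Capitals mark matches to 5 motifs searched on both strands: TGACGTCA, which is the full cAMP response element; TGACG, which is its shorter form and is contained in it; TATAAA, which is the core of the TATA box; CCAAT, which is the box of that name; and GGGCGG, which is the GC box. Pick1 has 2 annotated starts 209 bases apart, and the downstream one is shown because the transcript with the downstream start had the higher RNA signal.
Dpy19l2: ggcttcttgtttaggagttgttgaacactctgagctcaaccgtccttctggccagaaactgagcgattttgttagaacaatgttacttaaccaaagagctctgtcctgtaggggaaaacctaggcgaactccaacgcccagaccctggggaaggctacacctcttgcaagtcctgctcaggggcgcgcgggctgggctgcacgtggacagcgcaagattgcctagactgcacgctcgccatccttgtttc
Gopc: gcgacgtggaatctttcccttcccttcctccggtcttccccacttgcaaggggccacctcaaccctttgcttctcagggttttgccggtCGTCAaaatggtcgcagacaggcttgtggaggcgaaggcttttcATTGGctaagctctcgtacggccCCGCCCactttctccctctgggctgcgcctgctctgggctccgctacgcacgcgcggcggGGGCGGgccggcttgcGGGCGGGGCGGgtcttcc
Pick1: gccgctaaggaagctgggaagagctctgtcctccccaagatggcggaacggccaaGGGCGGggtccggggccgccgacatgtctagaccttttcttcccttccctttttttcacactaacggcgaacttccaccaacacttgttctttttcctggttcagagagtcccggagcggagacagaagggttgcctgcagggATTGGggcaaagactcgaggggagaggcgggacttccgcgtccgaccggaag
Fam170b: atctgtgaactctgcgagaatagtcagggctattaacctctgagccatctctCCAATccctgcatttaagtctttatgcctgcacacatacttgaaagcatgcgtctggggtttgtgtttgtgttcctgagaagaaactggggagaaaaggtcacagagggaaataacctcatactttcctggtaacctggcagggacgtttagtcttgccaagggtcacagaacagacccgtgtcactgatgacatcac

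The promoters differed in base composition. Over the 300-base window, which adds 50 bases after the start, Fam170b had a GC content of 48.7% and 4 CpG dinucleotides, and 31.4% of the 32851 RefSeq promoters had fewer CpGs. Gopc had 65.0% GC and 26 CpGs, Pick1 61.3% and 24 at the start shown, and Dpy19l2 56.7% and 18. The median promoter had 52.7% GC and 7 CpGs. The count of CpGs was thus below the median at Fam170b and above it at the other 3 genes.

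Motif matches were most numerous at Gopc. It held 4 GC boxes, 1 CCAAT box and 1 TGACG. Pick1 held 1 GC box, 1 CCAAT box and a TGACG that begins at the start itself, just past the bases printed. Fam170b held 1 CCAAT box, and Dpy19l2 a TGACG 10 bases after the start. None of the 5 windows of the 4 genes held the full element or the TATA box core. Of all promoters, 35.7% held a GC box, 37.4% a CCAAT box, 20.8% TGACG, 13.6% the TATA box core and 1.79% the full element. A match is a description of letters, not of a bound site.

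The libraries were first checked against their labels. Taf7l itself had a signal of 13.2 in wild-type and 2.04 in knockout testis. The signal has no unit in the file header, and the standard deviation (SD) beside each mean is the authors'. The basis of that SD was not given in the sources used here, and it is not a spread between animals. The labels put each RNA library at 100 to 200 M reads (1 M being 1e+06 reads), and the depth of the ChIP libraries is unknown. Spermatid markers were detected in both libraries, and 5 of 5 were at least 2-fold lower in the knockout, their summed signal being 60525 in wild-type and 10922 in knockout testis. Spermatocyte markers summed to 3056 and 2800 (1 of 4 higher), and Sertoli cell markers to 698 and 1329 (1 of 4 higher). Leydig cell markers summed to 1876 and 1488 (2 of 4 higher). Most of the spermatocyte sum was Ldhc, with 2666 and 2307, whereas Sycp3, Sycp1 and Hspa2 had higher signals in the knockout. Most of the Leydig cell sum was Insl3, with 1686 and 1052. Star had 23.5 and 11.7, and neither was called lower, whereas Cyp17a1 and Cyp11a1 rose from 126 and 40.0 to 274 and 151. Epididymal markers summed to 1.59 and 130, with 3 of 4 measured markers higher. Lcn5 was listed at 0 in wild-type testis, with 0.058 in the knockout. Relative to the median of all genes, 5 spermatid and 3 epididymal markers kept these calls, 0 spermatocyte and 0 Sertoli cell markers were higher, and of the Leydig cell markers 1 was higher and 2 were lower.

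Fam170b was lower in the knockout, Dpy19l2 and Pick1 had nearly equal signals as deposited, and Gopc had a higher signal in the knockout that stayed short of 2-fold. By the 2-fold rule, 1 of the 4 genes was lower and 0 were higher. Over all 12737 genes 7.18% were lower and 7.29% higher, so with 4 genes these counts say nothing particular about them as a group. The median log2 change of the 4 genes was 0.02, on the scale log2((knockout + 1)/(wild type + 1)), and that of all genes was 0.40. When the knockout library was rescaled to a median change of 0, the split over all genes became 1626 lower and 143 higher against 914 and 928 as deposited, and the share of lower genes among those called rose from 49.6% to 91.9%. For the 4 genes, changes relative to the median of all genes are therefore given beside those as deposited. Values of other genes are as deposited unless stated.

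**Figure D1:**
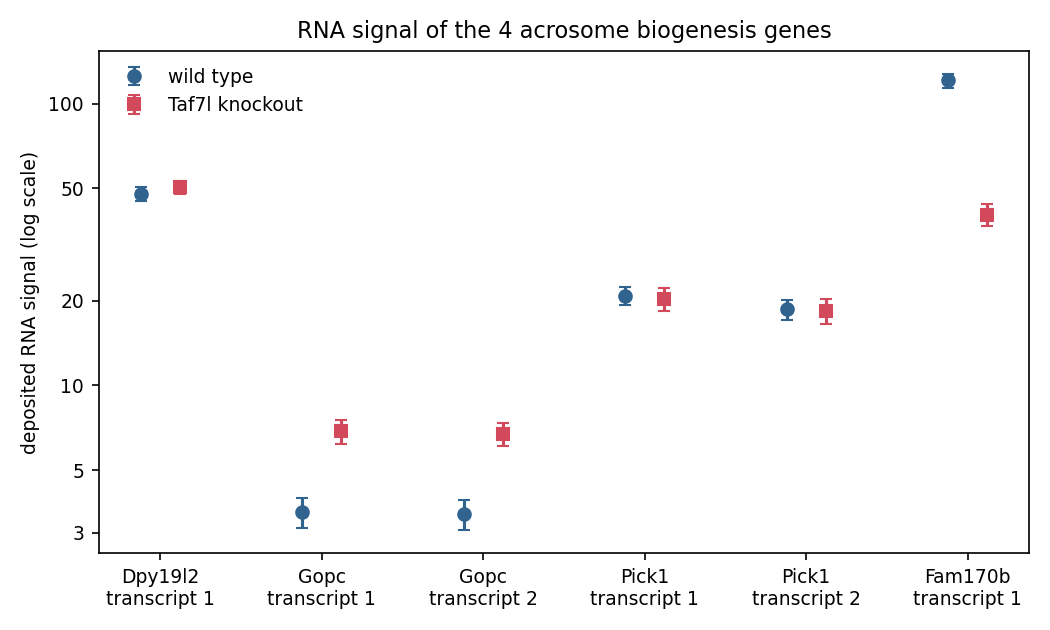
Deposited RNA signal (log axis) of the 6 transcript rows in the wild-type and the Taf7l knockout library; bars are the authors' SD, which is not a replicate spread. Fam170b lies at 121 in wild-type and 40.3 in knockout testis, whereas the bars of both genotypes overlap for Dpy19l2 and Pick1.

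Among the Golgi proteins, Gopc encodes a PDZ and coiled-coil protein of the trans-Golgi network. Its 2 transcript rows share the span on chromosome 10, 52056829 to 52101930 (mm9). The first had 3.56 (SD 0.437) in wild-type and 6.87 (SD 0.651) in knockout testis, and the second 3.49 (SD 0.426) and 6.73 (SD 0.641). The ranges of mean and SD do not overlap between genotypes in either row. The log2 change was 0.79 for the first row and 0.78 for the second, or 0.38 relative to all genes for both. Without a pseudocount the first row was 1.93 times as high in the knockout. Of all compared genes, 81.4% had a smaller or more negative log2 change. In the wild type 34.3% of genes had a lower signal than Gopc, the lowest place among the 4 genes.

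Pick1 encodes a protein with a PDZ and a membrane-bending BAR domain. Its rows lie on chromosome 15 and share an end at 79079896 (mm9). The row that starts at 79059811 had 20.8 (SD 1.53) in wild-type and 20.3 (SD 1.89) in knockout testis. The row that starts 208 bases upstream, at 79059603, had 18.6 (SD 1.52) and 18.4 (SD 1.88). In each row the genotypes differed by less than either SD. The log2 changes were -0.03 and -0.02 as deposited, and -0.44 and -0.42 relative to all genes.

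At the nuclear membrane, Dpy19l2 (chromosome 9, 24361491 to 24500737, mm9) had 47.8 (SD 2.81) in wild-type and 50.5 (SD 2.61) in knockout testis. The difference of 2.61 was smaller than the SD of the wild type and about equal to that of the knockout. The log2 change was 0.08, or -0.33 relative to all genes, so its sign depends on the scaling. Of all compared genes, 30.6% had a lower log2 change than Dpy19l2 and 26.2% a lower one than Pick1. Dpy19l2 stood above 86.5% of genes in wild-type signal and above 87.0% in knockout signal.

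In the acrosome itself, Fam170b (chromosome 14, 33647147 to 33649974, mm9) fell from 121 (SD 6.93) in the wild type to 40.3 (SD 3.64) in the knockout. The wild-type signal was 3.00 times the knockout signal. The log2 change was -1.56 as deposited and -1.96 relative to all genes, and 2.21% of genes had a lower value. Fam170b was the most abundant of the 4 genes in the wild type, where 94.2% of genes had a lower signal, whereas in the knockout it lay below Dpy19l2. Spermatid markers moved with it: the median log2 change of that list was -2.38, and their part in the result was not tested. In bulk testis RNA, fewer spermatids and less RNA per spermatid cannot be told apart. The RNA libraries also differ in epididymal markers, as given above, and the part of that difference was not tested either.

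The paralogues stayed within 2-fold. Dpy19l1, Dpy19l3 and Dpy19l4, the other members of a family that includes C-mannosyltransferases, had signals of 13.6, 0.838 and 1.27 in the wild type and 17.4, 1.32 and 2.52 in the knockout. Dpy19l2 had the highest signal of the family in both libraries. Fam170a, the paralogue of Fam170b, had 14.7 (SD 1.36) in wild-type and 13.4 (SD 1.43) in knockout testis, a difference smaller than either SD. The log2 change of Fam170a was -0.12 as deposited and -0.53 relative to all genes.

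TAF7L was assigned to the promoter of all 4 genes, most strongly at Pick1. The score is the authors' and has no stated definition, and 0 was read as no assigned signal. In the promoter class TAF7L scored 181 at Pick1, 97.1 at Dpy19l2, 59.7 at Gopc and 37.2 at Fam170b. Of all compared genes 54.5% had such a score, with a median of 71.9 and a lower quartile of 52.3. Pick1 stood above 97.2% of the genes with a score, Dpy19l2 above 76.7%, Gopc above 34.2% and Fam170b above 8.77%. Fam170b, the gene that fell, thus had the lowest TAF7L promoter score of the 4 genes, and the only one under the lower quartile. With 4 genes this order is a description.

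Pol II gave another order. Its promoter scores were 693 at Pick1, 438 at Gopc, 405 at Fam170b and 312 at Dpy19l2, against a median of 374 among scored genes, and 85.8% of all compared genes had one. The ratio of the TAF7L to the Pol II promoter score was 0.311 at Dpy19l2 and 0.261 at Pick1, above 95.4% and 91.4% of genes with both scores. The ratio was 0.136 at Gopc and 0.0919 at Fam170b, above 46.8% and 14.7%. Dpy19l2 and Pick1, whose RNA signal as deposited was nearly equal in both genotypes, so had the higher TAF7L scores relative to Pol II. No column of the table holds the IgG control library, and the scores are therefore given without its background.

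**Figure D2:**
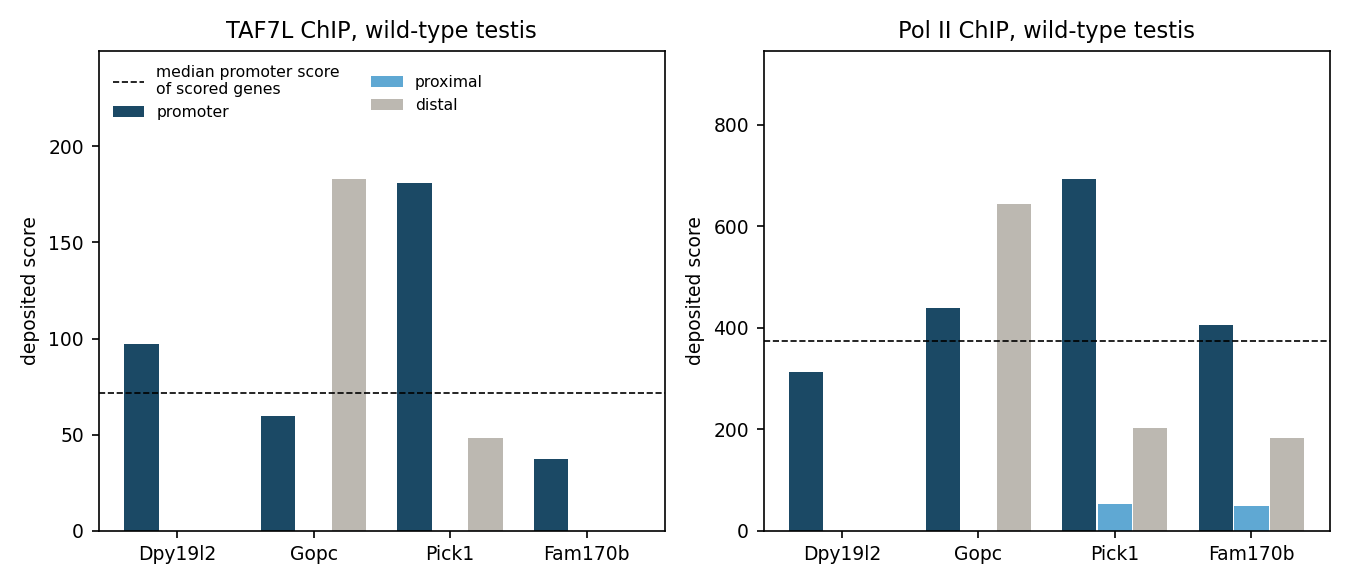
Deposited TAF7L (left) and Pol II (right) scores of the 4 genes in wild-type testis by position class, with the median promoter score of scored genes as a dashed line. TAF7L promoter scores run from 37.2 at Fam170b to 181 at Pick1, and no gene has a TAF7L score in the proximal class.

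Outside the promoter class, the distal scores of the 4 genes equalled scores that neighbouring genes carry in a nearer class. No gene of the 4 had a proximal TAF7L score, against 33.7% of all genes, and 2 had a distal one, against 53.7%. Pol II had a proximal score at 2 of the 4 genes, 52.0 at Pick1 and 47.7 at Fam170b, against 62.9% of all genes, and a distal score at 3, against 77.1%. With 4 genes these counts do not stand apart from the shares of all genes. The distal scores of Gopc, 183 for TAF7L and 644 for Pol II, equal the promoter scores of Nus1, whose transcript lies 35.4 kb away. Nus1 in turn has the promoter scores of Gopc, 59.7 and 438, as its distal scores. Nus1, which encodes a subunit of the enzyme that makes dolichol, had RNA signals of 6.90 and 10.3. The distal Pol II score of Fam170b, 182, likewise equals the promoter score of Vstm4 (listed as E130203B14Rik), 20.0 kb away, which had RNA signals of 5.03 in wild-type and 9.11 in knockout testis. The distal scores of Pick1, 48.4 and 203, equal the proximal scores of Gm10863, a transcript with a signal of 0.303 in both libraries. All distal scores of the 4 genes were thus equal to promoter or proximal scores of a neighbour, while Dpy19l2 had no score outside its promoter.

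Dpy19l2 holds another spermatid gene within its span. Cypt10, a gene of the cysteine-rich perinuclear theca family, covers 645 bp of chromosome 9 (24429628 to 24430272, mm9), 68.1 kb from the lower end of the 139 kb Dpy19l2 transcript. Cypt10 fell from 500 (SD 21.4) to 197 (SD 11.9), a log2 change of -1.34, while Dpy19l2 around it did not pass 2-fold. Cypt10 had a TAF7L promoter score of 0 and a Pol II promoter score of 236. The nested pair therefore differed in both RNA change and TAF7L score. Use of strand or exons in the counting was not given in the sources used here, so reads of the shared span cannot be assigned with certainty.

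The nearest other genes that passed the filter were set beside the members. Ercc6 and Vstm4, on either side of Fam170b, had signals of 2.15 and 5.03 in the wild type and 4.23 and 9.11 in the knockout. Beside Pick1, Polr2f had 96.9 and 160 and Pla2g6 32.3 and 29.9. Dcbld1, on the other side of Gopc from Nus1, had 0.901 and 1.54. Beside Dpy19l2, on the side away from Dpy19l1, a Herpud2 transcript 413 kb away fell from 557 (SD 91.6) to 234 (SD 77.6). It spans only 1069 bp and was used because it had the highest mean of the gene's transcripts.

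**Figure D3:**
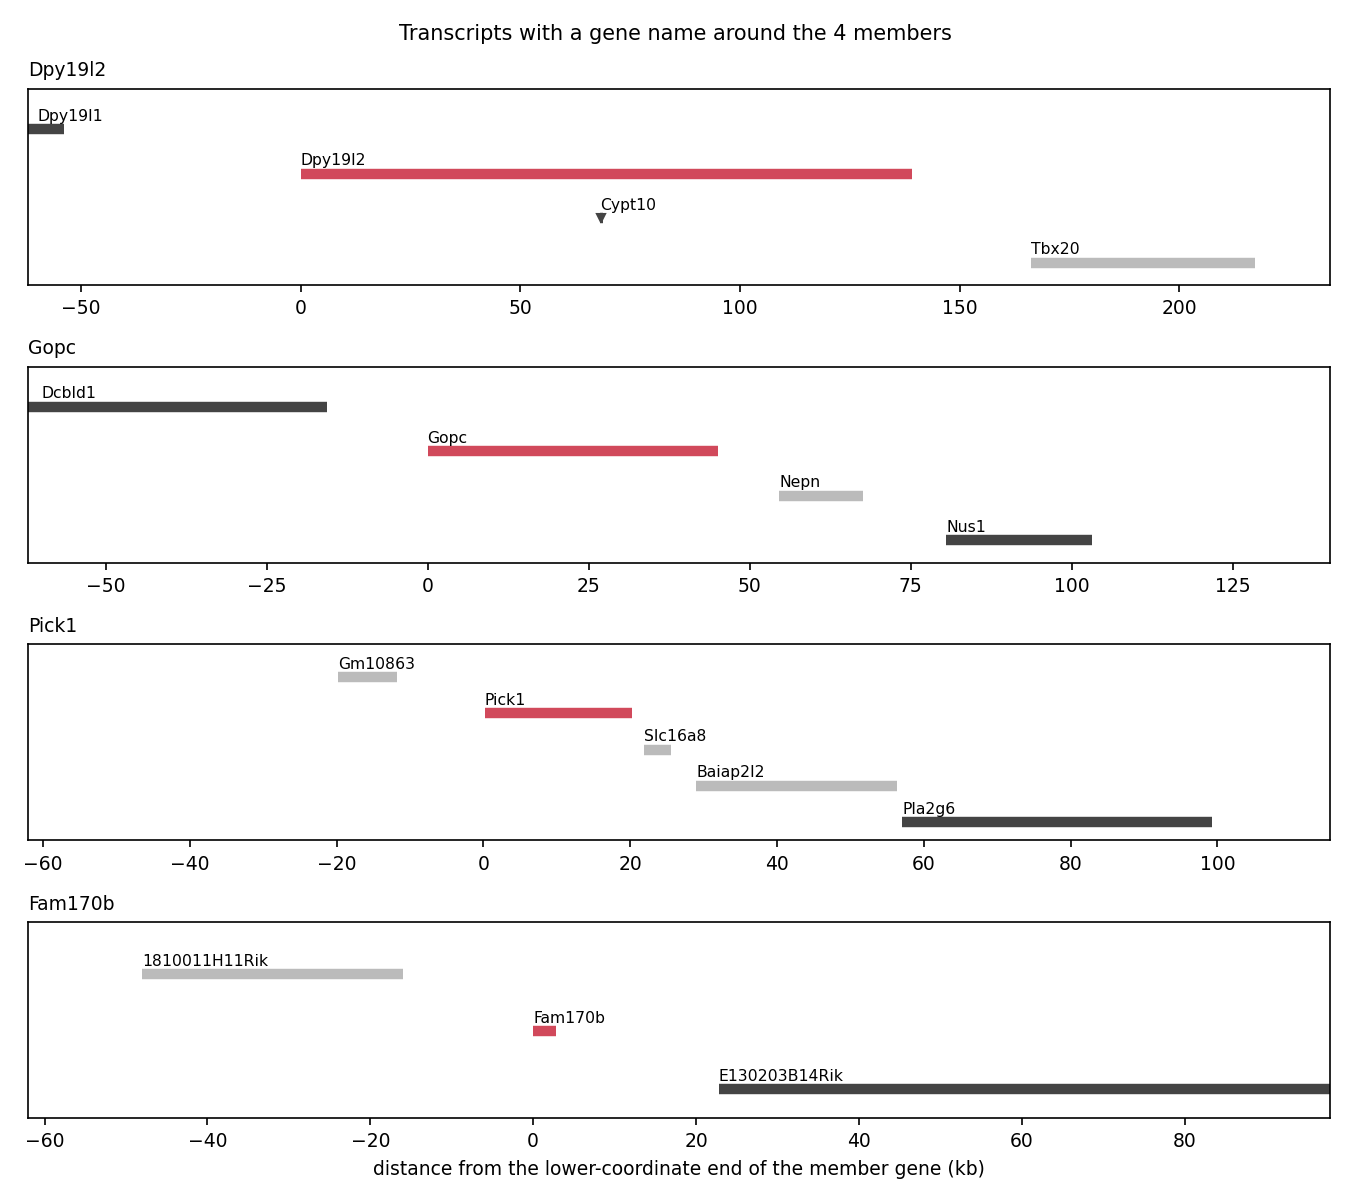
Transcripts with a gene name within 60 kb of each gene, drawn to scale as distance in kb from the lower-coordinate end of the member (red; other genes dark where the mean signal is at least 1, light where it is lower; 1 transcript per name, bars cut at the frame). Cypt10, marked by a triangle, lies 68.1 kb inside Dpy19l2, and Nus1 and Vstm4 (E130203B14Rik) lie 35.4 and 20.0 kb from Gopc and Fam170b.

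The wider acrosome programme was described with 3 lists of 56 genes in all, of which 54 were measured. Of these, 18 fell by at least 2-fold and 1 rose by as much, and the median log2 change was -0.16. Over all compared genes the shares were 7.18% lower and 7.29% higher, and the median 0.40. The lists were chosen with earlier results of these data known, so their counts are descriptions and not an independent finding. In the list of the acroplaxome, perinuclear theca and nuclear envelope 10 of 20 measured members were lower, among acrosomal vesicle and membrane genes 6 of 15, and among genes of traffic from Golgi to acrosome 2 of 19, a share near that of all genes. Spermatid markers fell in the same libraries, as given above. The marker Acrv1 is also among the lower acrosomal vesicle and membrane genes, so the 2 groups are not fully separate.

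Among traffic genes, the group of Gopc and Pick1, 2 of 19 were lower and 0 higher on the scale with pseudocount 1, and the median of 0.35 was close to the 0.40 of all genes. The PICK1 partner gene Csnk2a2, a casein kinase subunit whose loss also gives round-headed sperm, had 10.1 and 13.0. Golga3 and Stx6, a golgin and a syntaxin that bind GOPC, had 25.8 and 37.8, and 9.93 and 19.5. The autophagy gene Becn1 had 22.9 and 32.4. Hsp90b1, a chaperone of the endoplasmic reticulum and the most abundant gene of the list, had 194 and 323, and Sirt1, a deacetylase gene, had 2.96 and 6.57, the largest positive change. It was past 2-fold without the pseudocount and at a pseudocount of 0.1, but not at 1. Rhoq, at 0.572 and 0.871, was below the filter. The 2 genes that fell were Fam71f1, from 55.9 to 21.2, and Ica1, from 22.2 to 9.60. ICA1 and ICA1L carry BAR domains that pair with that of PICK1, and Ica1l had 15.6 and 15.3.

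Vesicle and membrane genes, the group of Fam170b, had 6 of 15 members at least 2-fold lower, against 7.18% of all genes, and a median of -0.37. The log2 changes ran from -1.38 to -0.10 as deposited, and the other 9 members did not pass 2-fold. Relative to the median of all genes 7 were lower. Spaca7, which encodes a protein of the acrosomal matrix, fell most, from 78.2 to 29.5. The equatorial segment gene Eqtn fell from 28.0 to 12.2, and Izumo1, the sperm protein that binds the egg, from 35.5 to 16.3. Spata16, another gene of round-headed sperm and a Golgi protein, had 69.2 (SD 3.16) and 64.5 (SD 2.44), the value nearest to no change as deposited. Relative to all genes its log2 change was -0.50. Spink2, a protease inhibitor and the most abundant gene of the list, had 258 and 230. The fall of Fam170b, by 1.56 on the log2 scale, was larger than that of any gene of this list.

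Genes of the acroplaxome, perinuclear theca and nuclear envelope, the surroundings of DPY19L2, had a median of -1.02. Cylc1, a cylicin of the perinuclear theca, fell from 28.4 to 7.71, and Cylc2 from 80.9 to 23.5. The actin-like genes Actl7a, Actl9 and Actrt2 fell from 257, 315 and 388 to 113, 122 and 120, and Actl7b, the most abundant, had 614 and 360. Sun5 and Spag4, which encode SUN domain proteins of the spermatid nuclear envelope, fell from 36.9 and 94.6 to 15.3 and 40.9. The list also holds Sun1, with 58.5 and 85.6, and Sun3, with 17.9 and 9.51, both within 2-fold as deposited. Lmnb1, the lamin of most nuclei, rose from 8.50 to 20.6 and was the 1 higher gene of the lists with the pseudocount of 1, but was within 2-fold relative to all genes. Lmnb2, the gene of the other B-type lamin, fell from 34.6 to 16.0. Syne1 was below the filter, with 0.312 and 0.254. The 10 lower genes of the 20 measured stand against 7.18% of all genes. Relative to the median of all genes 13 of the 20 were lower, beside 1626 of all 12737 genes. The 20 include the paralogues Dpy19l1, Dpy19l3 and Dpy19l4, which were not among the lower genes on either scale. Dpy19l2 itself, which is not in the list, had a log2 change of 0.08, or -0.33 relative to all genes.

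**Figure D4:**
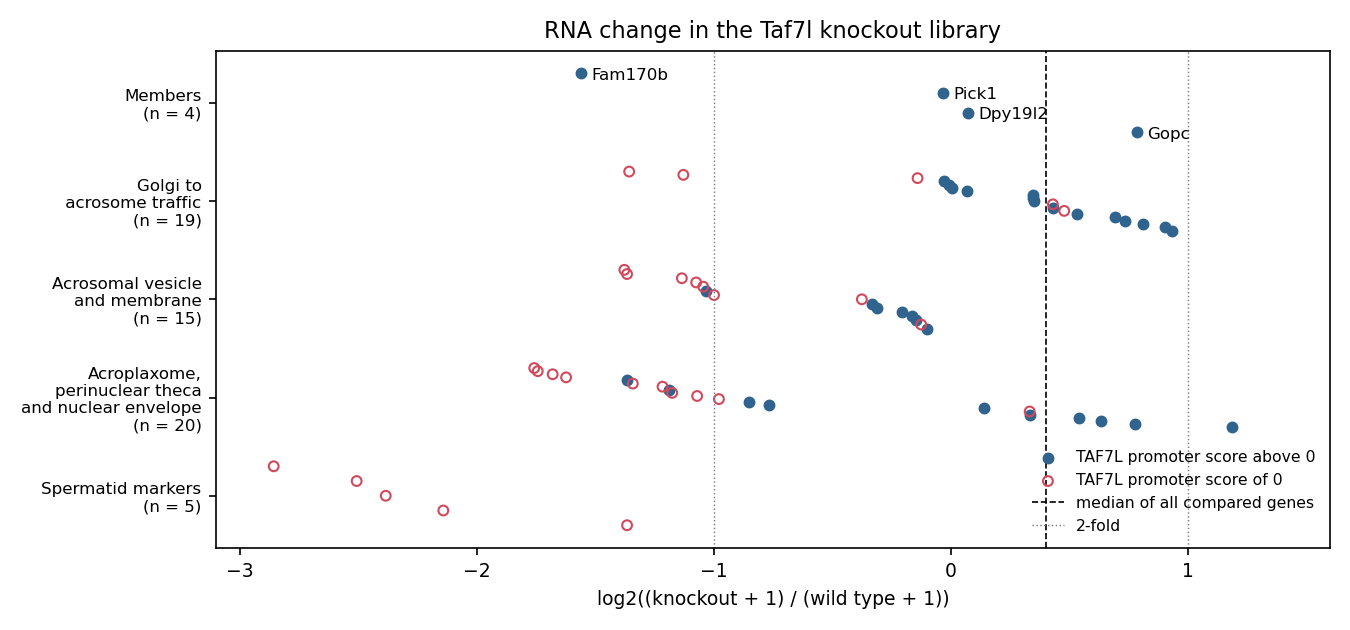
Log2 change (knockout against wild type, pseudocount 1) of each measured gene of the members, the 3 lists and the spermatid markers; filled points have a TAF7L promoter score above 0 and open points a score of 0. Dashed and dotted lines are the median of all genes, 0.40, and 2-fold. The 5 spermatid markers lie left of 2-fold with open points, and Acrv1 is drawn both there and in the vesicle list.

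Lists and TAF7L scores were set side by side. Of the 31 measured list genes with a TAF7L promoter score 3 were at least 2-fold lower, and of the 23 without one 15 were. Median log2 changes were 0.14 and -1.13. This split used the promoter class only. Among the 15 lower genes without a promoter score, Actl7a and Lmnb2 had proximal TAF7L scores of 56.6 and 65.8. Fam71f1, Eqtn and Actrt2 had distal ones of 84.2, 54.9 and 29.3, and the remaining lower genes without a promoter score had none in any class. Over all genes the shares of lower genes were 3.13% of 6943 genes with a TAF7L promoter score and 12% of 5794 without, and those of higher genes 5.16% and 9.84%. These shares are descriptions of 1 library per genotype and were not tested. The 3 lower list genes with a score were Actl9, Spaca1 and Spag4, with TAF7L scores of 37.6, 45.4 and 66.2. Fam170b, with 37.2, was a further gene of this kind, and 3 of the 4 scores lie under the lower quartile of scored genes. The list genes Vti1a, Spata16, Dpy19l1 and Kifc1, at 41.2, 39.8, 51.6 and 46.4, also lie under it and stayed within 2-fold. Dpy19l2, Gopc and Pick1 belonged to the larger group that had a score and stayed within 2-fold, as did Spata16 with 39.8, Zpbp with 84.6 and Csnk2a2 with 78.6.

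Likeness to other genes was measured as the Euclidean distance in log2(value + 1) over 4 libraries, namely both RNA signals and both promoter scores. Nearest to Fam170b were 4921507P07Rik, at a distance of 0.31, and Fam221b, at 0.64. 4921507P07Rik fell from 140 to 36.6 with scores of 42.5 for TAF7L and 396 for Pol II, and Fam221b from 82.4 to 32.8 with 39.2 and 442. Nearest to Dpy19l2 were Chmp6, an ESCRT component gene, and Dym, both at 0.32. Armc1 lay at 0.17 from Gopc. Cep72 and Efcab2 were nearest to Pick1, at 0.23 and 0.26. Among the 4 genes the smallest distance was 1.96, between Dpy19l2 and Fam170b, and the largest 5.35, between Gopc and Fam170b.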

How the data were processed

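RNA of wild-type and Taf7l knockout testis and TAF7L and Pol II chromatin of testis labelled wild type were read from the 2 deposited tables. The submitters' processing notes name Bowtie, TopHat, Cufflinks and mm9. Tool versions, peak calling and the position classes were not given in the sources used here. Per the file headers, the authors deposited a mean expression signal with its standard deviation (SD) per transcript, a log2 ratio and a ratio of SD to mean. The deposited binding table holds a score per transcript and class. In 2007 wild-type and 2129 knockout rows of 300 to 3000 bp, reads implied by the SD rose with genomic span per unit of signal. The slopes were 0.85 and 0.87, where 1 means a signal per length and 0 not. Levels were compared between genes on that basis. It takes the SD as a counting spread, which was not stated, and the rows of Dpy19l2, Gopc and Pick1 span more than 3000 bp.

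Older symbols were moved to RefSeq symbols (GRCm38.p6, names only) on the same chromosome, which moved 2824 names, and 7541 rows without a gene name were left out. The transcript with the highest mean stood for a gene, scores were the highest over its transcripts, and genes needed a mean of at least 1. Members and lists were chosen with earlier results of these data known. Genes were named by rule: the members, their paralogues and partners, the most abundant and most changed gene of each list, nearest neighbours and nearest profiles; 1 gene that the rule takes is not reported here. Other list genes and Cypt10's family were named after their values were seen. Markers were those of spermatids, spermatocytes, Sertoli cells, Leydig cells and epididymis. RefSeq promoters matched 4 of 4 members. Alternatives covered pseudocount, filter, scaling, transcript choice and score threshold. Calculations used Python 3.11.15.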

Additional observations from a re-analysis of the deposited data

How the results depend on the processing

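The calls of the 4 members were the same under all 8 alternatives: Fam170b at least 2-fold lower and none higher. Rescaling to a median change of 0 shifts every gene by the same amount and put Dpy19l2 at -0.33, Gopc 0.38, Pick1 -0.44 and Fam170b -1.96. Equal totals over named genes, with 1 transcript per gene and without Prm1, Prm2, Tnp1 and Tnp2, gave 0.02, 0.74, -0.09 and -1.61. Over all transcript rows the signal instead summed to 1.10e+06 in wild-type and 1.39e+06 in knockout testis. Scaling to those sums was not run. Over all genes, rescaling gave 143 higher and 1626 lower, and a pseudocount of 0.1 gave 2077 higher. In the traffic list 1 gene was higher with a pseudocount of 0.1 and with summed transcripts, against 0. After rescaling 0 genes of the nuclear envelope list were higher, against 1, and 13 were lower, against 10. Lower vesicle and membrane genes were 7 with a pseudocount of 0.1 and after rescaling, against 6. With scores above the lower quartile only, 1 member kept a distal TAF7L score and 0 a proximal Pol II score, against 2 each. No paired analysis was possible because each group has 1 library. With 1 pooled RNA library per genotype and unknown ChIP depth, no difference has a replicate error.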
